A study of Mus musculus with 6 samples.

Results

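The lymph node stroma, venule and sinus genes described here are 10 of the 57180 genes in a TPM table of mouse inguinal white fat, which lies under the skin of the groin. They are the chemokine genes Ccl19, Ccl21a and Cxcl13, the venule genes Glycam1, Madcam1 and Chst4, and the sinus genes Marco, Siglec1, Clec4g and Fcna. They were chosen by name, with their TPM in these same libraries known, so their levels across the libraries are a description and not a test. Each of the 10 names matched 1 row of the table, and 8 of the 10 averaged 1 TPM or more over the 6 libraries, the minimum for the test across genes. The other two, Chst4 and Clec4g, had means of 0.603 and 0.835 TPM.

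The libraries came from male mice labelled WT. One group of 3 samples had received a high-fat diet (HFD) and the other group of 3 a high-fat diet with 0.5% hesperidin, a flavonoid glycoside of citrus peel (HEP), for 12 weeks. Both groups thus carried the high-fat diet, and the control-diet animals that the series describes were not analysed here. Ages and the strain were not in the labels, nor do they tell if the 3 samples of a group were 3 animals, so each p-value reflects the spread among the samples alone, which may be technical. TPM is a gene's share of all transcripts in a library, corrected for transcript length and scaled to a fixed total, so levels may be compared between genes. Read depth is unknown from TPM, which leaves values without counting intervals, and genes at 0 are described as listed at 0. In bulk tissue, fewer cells of a type and less RNA per cell cannot be told apart.

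Lymph nodes are built around a scaffold of stromal cells that sets where lymphocytes go. Fibroblastic reticular cells of the T cell zone and endothelial cells secrete CCL19 and CCL21, which draw T cells and dendritic cells through the receptor CCR7, while follicular stromal cells secrete CXCL13, which draws B cells through CXCR5. Blood lymphocytes enter across high endothelial venules, whose sulfated mucins catch passing lymphocytes, and lymph flows through sinuses lined by lymphatic endothelium and by macrophages that take up particles. In the mouse the inguinal fat pad encloses the inguinal lymph node. The labels do not say whether the node was kept or removed at dissection, and its part in the values below was not tested.

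In 3 of the 6 libraries, HFD replicate 3 and HEP replicates 1 and 3, the chemokine and venule genes and Marco stood far above the other 3, HFD replicates 1 and 2 and HEP replicate 2. Siglec1 and Clec4g had the same order of libraries with a narrow gap, and Fcna had the reverse order. Over the tested genes, 30.5% had all of these 3 libraries above the other 3, and 13.7% had all of them below. Of the 8 tested members, 7 had the first order and 1 the second, which the choice of members in part fixes.

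**Figure D1:**
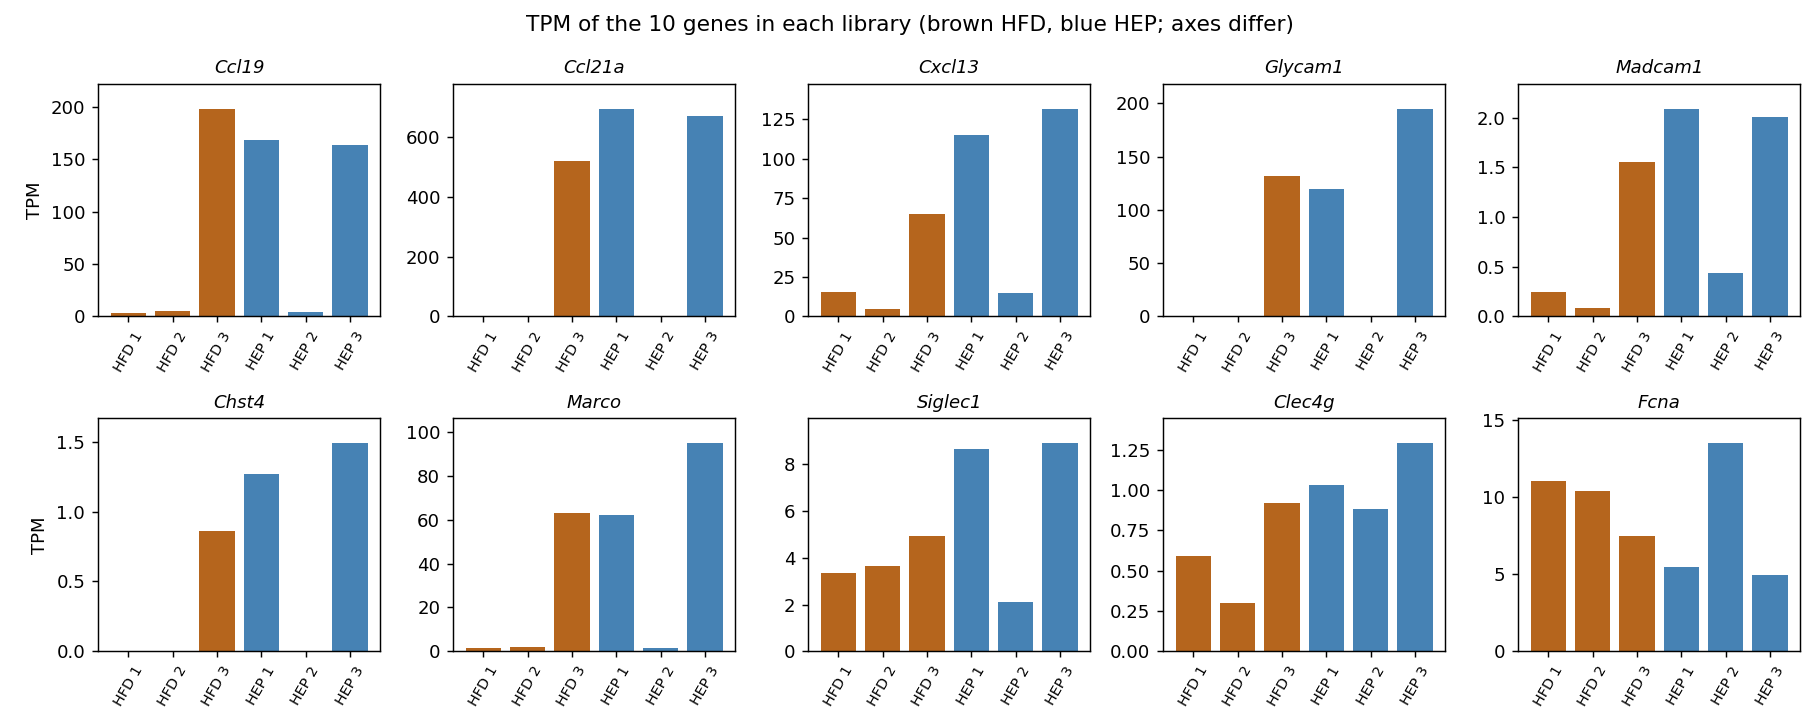
Bars give the TPM of each of the 10 genes (vertical axis, linear from 0, with its own range per gene) in the 3 HFD libraries (brown) and the 3 HEP libraries (blue) along the horizontal axis. HFD replicate 3 and HEP replicates 1 and 3 are highest for 9 genes, from 519 to 695 TPM for Ccl21a, whereas Fcna is lowest in them, from 4.97 to 7.46 TPM.

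Among the chemokines, Ccl21a (ENSMUSG00000094686), the CCR7 ligand of the T cell zone and of lymphatic vessels, was the most abundant of the 10 genes in the 3 high libraries. Ccl21a had 0.87, 0.28 and 519 TPM in HFD replicates 1, 2 and 3, and 695, 0 and 670 TPM in the HEP replicates in the same order. The lowest of its 3 high values was 597 times the highest of the remaining values. Ccl19 (ENSMUSG00000071005), the other CCR7 ligand, had 2.95, 5.35 and 198 TPM in the HFD libraries and 168, 3.87 and 163 TPM in those with hesperidin. It was thus highest in an HFD library, and the lowest of its 3 high values was 30.5 times the highest of the other values (163 against 5.35 TPM), here called its gap. Cxcl13 (ENSMUSG00000023078), the CXCR5 ligand of B cell follicles, had 15.2, 4.70 and 65.1 TPM in the HFD libraries and 115, 14.8 and 132 TPM in those with hesperidin. Cxcl13 kept a level of several TPM in each of the 3 low libraries, and its gap was 4.29-fold, the smallest of the 3 chemokines.

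The balance of the chemokines differed between libraries. Ccl21a stood at 2.62, 4.13 and 4.10 times the TPM of Ccl19 in HFD replicate 3, HEP replicate 1 and HEP replicate 3. In HFD replicates 1 and 2 the order was the reverse, with ratios of 0.295 and 0.0523, and in HEP replicate 2 Ccl21a was listed at 0 beside 3.87 TPM of Ccl19.

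Mouse Ccl21 and Ccl19 lie in a cluster of near-identical copies, so how reads were shared out between them is part of these levels. The longest open reading frame of Ccl21a in GENCODE release M21, 402 bases, differs from those of Ccl21b and Ccl21d by 2 substitutions, T84A and C194T, the base of Ccl21a first and positions counted from the A of the start codon. Bases 66 to 212 of that frame are shown because they hold both differing positions, which are in capitals.
Ccl21a: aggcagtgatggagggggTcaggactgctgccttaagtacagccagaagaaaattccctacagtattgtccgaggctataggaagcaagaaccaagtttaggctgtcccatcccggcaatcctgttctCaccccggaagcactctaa
Ccl21b: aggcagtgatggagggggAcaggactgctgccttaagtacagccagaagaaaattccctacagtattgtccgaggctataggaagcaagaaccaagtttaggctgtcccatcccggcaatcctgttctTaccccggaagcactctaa
Ccl21d: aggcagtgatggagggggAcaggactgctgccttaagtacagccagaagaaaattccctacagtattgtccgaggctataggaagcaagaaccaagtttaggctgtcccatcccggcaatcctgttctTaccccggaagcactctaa
These stretches are the same in Ccl21b and Ccl21d. The second substitution separates the forms of the protein known as CCL21-Ser and CCL21-Leu.

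Ccl21b had 0.22, 0 and 21.1 TPM in the HFD libraries and 20.8, 0 and 22.1 TPM in those with hesperidin, high in the same 3 libraries as Ccl21a. Ccl21d, whose reading frame is identical to that of Ccl21b in the release, was listed at 0 in 4 libraries and at 0.01 TPM in HEP replicates 1 and 3. The TPM of Ccl21a was 24.6, 33.5 and 30.3 times that of Ccl21b in HFD replicate 3, HEP replicate 1 and HEP replicate 3. The values of the 3 genes are uncertain as far as reads without the differing bases were divided by estimation. Ccl19-ps2, listed as a long noncoding RNA, was not aligned to Ccl19, so its likeness to that gene was not checked. Ccl19-ps2 had 0.84, 4.77 and 72.7 TPM in the HFD libraries and 62.2, 1.89 and 48.4 TPM in those with hesperidin. Ccl19-ps1, a pseudogene with 283 identical bases and 3 substitutions in its alignment to the Ccl19 reading frame, was listed at 0 in HFD replicates 1 and 2 and in HEP replicate 2 and had 16.8, 16.3 and 7.36 TPM in HFD replicate 3, HEP replicate 1 and HEP replicate 3. Ccl19-ps3, with 285 aligned bases and 0 substitutions, was listed at 0 in all 6 libraries. These genes followed the library order of Ccl19 or were at 0, and the level of Ccl19 alone carries the same uncertainty.

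Among the venule genes, Glycam1 (ENSMUSG00000022491), which encodes a secreted mucin of high endothelial venules that bears their sulfated sugars, was either listed at 0 or abundant. Glycam1 was listed at 0 in HFD replicates 1 and 2 and in HEP replicate 2. It had 132 TPM in HFD replicate 3, 120 TPM in HEP replicate 1 and 195 TPM in HEP replicate 3. Madcam1 (ENSMUSG00000020310), the addressin bound by the integrin alpha4 beta7, had 0.25, 0.09 and 1.55 TPM in the HFD libraries and 2.09, 0.44 and 2.01 TPM in those with hesperidin. Its gap was 3.52-fold, at levels near 1 TPM. Chst4 (ENSMUSG00000035930), a sulfotransferase that adds sulfate to the sugars of these mucins, was listed at 0 in the same 3 libraries as Glycam1. It had 0.86 TPM in HFD replicate 3 and 1.27 and 1.49 TPM in HEP replicates 1 and 3. The mucin thus stood 85.1, 57.3 and 97.1 times above Madcam1 in HFD replicate 3, HEP replicate 1 and HEP replicate 3.

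Signalling through the lymphotoxin beta receptor and NF-kappaB is known to maintain the stroma and venules of lymph nodes, and the promoters of these genes were therefore searched for the kappaB-like letters GGGANNNNCC on both strands. RefSeq promoter sequences (GRCm38.p6) were found for 9 of the 10 members, Siglec1 being the one without. In the 250 bases before the start, 4 of the 9 held a match, against 17.6% of all 32851 promoters of the table. Cxcl13 had 1 match at -63 to -54, Marco 1 at -29 to -20 on the opposite strand, and Ccl19 1 at the outer edge of the window, at -250 to -241. Madcam1 had 3 matches, at -84 to -75, at -71 to -62 and, overlapping the second on the opposite strand, at -70 to -61. The 100 bases before the start are shown for these promoters with matches near the start and for Glycam1, which had none, with the matches in capitals.
Madcam1, chr10:79664459-79664558, plus strand: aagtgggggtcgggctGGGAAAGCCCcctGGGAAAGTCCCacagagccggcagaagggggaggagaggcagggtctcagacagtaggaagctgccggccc
Cxcl13, chr5:95956839-95956938, plus strand: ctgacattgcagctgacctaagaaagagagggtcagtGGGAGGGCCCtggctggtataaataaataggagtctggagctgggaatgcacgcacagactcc
Marco, chr1:120505025-120505124, minus strand: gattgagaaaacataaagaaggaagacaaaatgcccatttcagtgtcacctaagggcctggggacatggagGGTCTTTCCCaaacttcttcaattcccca
Glycam1, chr15:103565082-103565181, minus strand: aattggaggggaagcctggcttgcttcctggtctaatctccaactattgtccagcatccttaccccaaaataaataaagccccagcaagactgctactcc
A match describes the letters only, and the files hold no measure of binding. Ccl21a, Glycam1, Chst4, Clec4g and Fcna held no match in this window.

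The 4 sinus genes did not share one pattern. Marco (ENSMUSG00000026390), a scavenger receptor of medullary sinus macrophages and of some sinus endothelial cells, had 1.36, 2.05 and 63.2 TPM in the HFD libraries and 62.1, 1.30 and 94.9 TPM in those with hesperidin, a gap of 30.3-fold. Siglec1 (ENSMUSG00000027322), the sialic acid receptor CD169 of subcapsular sinus and medullary macrophages, had 3.33, 3.63 and 4.95 TPM in the HFD libraries and 8.67, 2.12 and 8.90 TPM in those with hesperidin. Its gap was 1.36-fold, and HFD replicate 3 lay closer to HFD replicates 1 and 2 than to the HEP replicates 1 and 3. Marco stood at 12.8, 7.16 and 10.7 times the TPM of Siglec1 in HFD replicate 3, HEP replicate 1 and HEP replicate 3, but below it in the other libraries, at 0.408, 0.565 and 0.613 times in HFD replicates 1 and 2 and HEP replicate 2.

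Clec4g (ENSMUSG00000074491), a C-type lectin of liver and lymph node sinusoidal endothelium, was low throughout, with 0.59, 0.30 and 0.92 TPM in the HFD libraries and 1.03, 0.88 and 1.29 TPM in those with hesperidin. HEP replicate 2 and HFD replicate 3, at 0.88 and 0.92 TPM, lay side by side, so that Clec4g had no clear gap between libraries. Fcna (ENSMUSG00000026938), which encodes ficolin A, a lectin of the complement system made by macrophages, had 11.0, 10.4 and 7.46 TPM in the HFD libraries and 5.47, 13.5 and 4.97 TPM in those with hesperidin. Its 3 highest libraries were those in which the other members were low, and the gap to the rest was 1.39-fold (10.4 against 7.46 TPM). In M21, exons of a gene on the opposite strand overlap Clec4g (Gm16553) and Fcna (Fcnaos), and both overlapping genes were listed at 0 in all 6 libraries. Fcnb, the other mouse ficolin gene, was listed at 0 as well.

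Clec4g, Fcna and Marco are also known from liver sinusoids and their macrophages, and 2 libraries were high in hepatocyte transcripts. Summed over 8 hepatocyte markers, the TPM was 2193 in HFD replicate 1 and 3192 in HEP replicate 2, and between 279 and 438 in the other 4. In those 4 most of the sum was Cyp2e1. That gene had 474, 250 and 324 TPM in the HFD libraries and 378, 597 and 189 TPM in those with hesperidin. Alb had 664, 27.5 and 48.8 TPM in the HFD libraries and 9.20, 1024 and 39.3 TPM in those with hesperidin. Fcna was highest in HFD replicate 1 and HEP replicate 2. HFD replicate 2 was close to them at 10.4 TPM, beside a hepatocyte sum of 312 TPM and 27.5 TPM of Alb. Clec4f, a defining gene of liver macrophages, had 0.91, 0.08 and 0.36 TPM in the HFD libraries and 0, 2.44 and 0.31 TPM in those with hesperidin. The 4 matched liver sinusoid markers other than the members summed to between 1.89 and 6.23 TPM. Of this sum Stab2, which lymph node sinuses share, had 0.64, 1.08 and 3.33 TPM in the HFD libraries and 4.64, 1.85 and 5.45 TPM in those with hesperidin, the order of Marco. Vsig4, a complement receptor of liver and other resident macrophages, had the order of Fcna, with 0.69, 0.41 and 0.11 TPM in the HFD libraries and 0.05, 0.69 and 0.14 TPM in those with hesperidin. What part liver transcripts have in Fcna and Clec4g was not tested. HEP replicate 2 also held 11415 TPM of 8 skeletal muscle markers, against 53.8 to 1304 TPM in the other libraries, and its part in the values of that library was not tested.

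The labelled tissue was present in all libraries, and lymphocyte genes divided them as the chemokine and venule genes and Marco did. The 8 adipocyte markers summed to 45931, 47983 and 37600 TPM for HFD and to 28849, 46485 and 28058 TPM in HEP. The 8 B cell markers summed to 6.02, 6.68 and 544 TPM for HFD and to 1101, 6.89 and 1183 TPM in HEP, and the 8 T cell markers to 6.28, 12.7 and 446 TPM for HFD and to 602, 9.60 and 647 TPM in HEP. Relative to the adipocyte sum, Fcna had 0.240, 0.216 and 0.198 TPM per 1000 TPM of markers in HFD and 0.190, 0.290 and 0.177 in HEP. Its library order was the same on that scale, but its gap was narrower, at 0.216 against 0.198 where the TPM were 10.4 against 7.46. Single members are also expressed in mammary gland and spleen. The 8 mammary epithelial markers summed to 5.43, 11.9 and 2.73 TPM for HFD and to 1.99, 6.99 and 2.49 TPM in HEP. Among them Wap and Csn1s1 were listed at 0 in all 6 libraries. Glycam1 is known in that tissue too, and was listed at 0 in the 3 libraries with the highest of these sums. What part mammary tissue has in the level of Glycam1 was not tested. Of the spleen markers, the developmental factors Nkx2-5 and Tlx1 were listed at 0 in all libraries, while Spic, a factor of red pulp macrophages, had 0.86, 1.03 and 8.19 TPM in the HFD libraries and 13.3, 0.74 and 12.0 TPM in those with hesperidin. The 7 spleen markers summed to 57.3, 86.3 and 145 TPM for HFD and to 157, 60.1 and 200.2 TPM in HEP. The spleen sum and Spic were thus high in the same 3 libraries as most members, the sum mainly through Cd209b, which lymph node macrophages share. What part spleen-type cells have in the members was not tested.

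Set against lymphocyte markers of the same library, the stromal genes fell into different patterns. Ccl21a had 1.17, 1.15 and 1.04 times the summed TPM of the T cell markers in HFD replicate 3, HEP replicate 1 and HEP replicate 3, but 0.139, 0.022 and 0 times in HFD replicates 1 and 2 and HEP replicate 2. Relative to T cell markers, the low libraries were thus poorer in Ccl21a, and Glycam1 was listed at 0 in them. Ccl19 differed less between libraries on this scale, at 0.470, 0.420 and 0.445 in HFD and 0.279, 0.403 and 0.253 in HEP. The ratio of Marco lay between 0.103 and 0.217. For both genes these T cell ratios of the 3 low libraries overlapped those of the 3 high ones, but their ratios to the B cell sum did not. Relative to B cell markers, Ccl19 had 0.490, 0.801 and 0.364 in HFD and 0.153, 0.562 and 0.138 in HEP. Marco had 0.226, 0.307 and 0.116 in HFD and 0.0564, 0.189 and 0.0802 in HEP on that scale, so the pattern depended on the markers used. Relative to the B cell sum, Cxcl13 had 0.120, 0.104 and 0.111 in HFD replicate 3, HEP replicate 1 and HEP replicate 3, close to each other. In HFD replicates 1 and 2 and HEP replicate 2 the same ratio was 2.52, 0.704 and 2.15. Each ratio in the low libraries has few TPM in its denominator, and its precision is unknown.

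**Figure D2:**
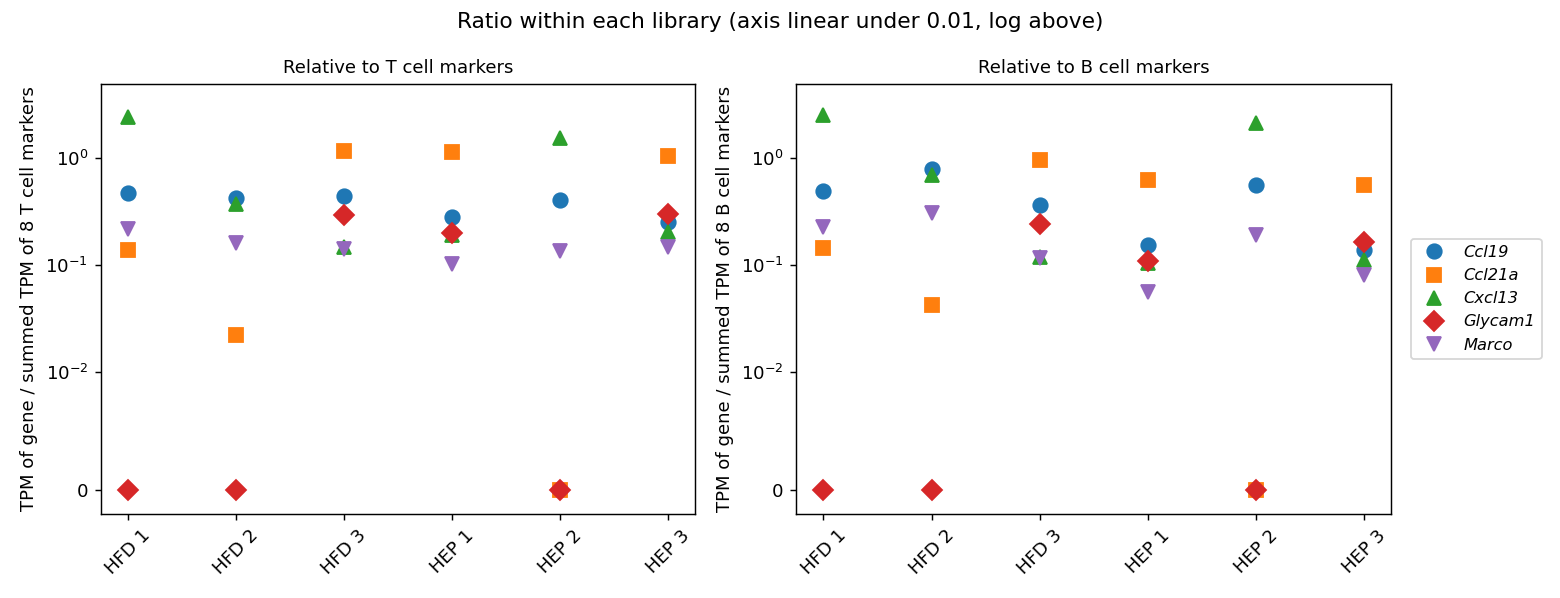
Points give the TPM of 5 members divided, within each library (horizontal axis), by the summed TPM of 8 T cell markers (left) or 8 B cell markers (right); the vertical axis has no unit and is linear under 0.01 and logarithmic above. Ccl19 lies between 0.253 and 0.470 of the T cell sum in all 6 libraries, while Ccl21a lies at 1.04 to 1.17 in 3 libraries and at most at 0.139 in the rest.

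Receptors and adhesion molecules that lymphocytes use to enter, cross and leave lymph nodes were mostly high in the same libraries. The list held the receptors of the member proteins, Ccr7, Cxcr5, Itga4 and Itgb7, and 4 further genes of lymphocyte traffic, Itgal, S1pr1, Cxcr4 and Ackr3. Of these 8 tested genes, 7 (87.5%) had HFD replicate 3 and HEP replicates 1 and 3 all above the rest, beside 30.5% of all tested genes. This division of the libraries was taken from these same data, and the lists were chosen with earlier results known. The share here and those of the lists below are therefore descriptions and not tests. Ccr7, the receptor of CCL19 and CCL21, had 0.24, 1.05 and 45.2 TPM in the HFD libraries and 67.0, 0.85 and 65.9 TPM in those with hesperidin. Cxcr5, the receptor of CXCL13, had 0.15, 0.54 and 19.4 TPM in the HFD libraries and 32.2, 0.10 and 34.2 TPM in those with hesperidin. Both receptors thus had their high values where their ligands had them. Itgb7, a chain of the integrin that binds MAdCAM-1, had 4.56, 12.6 and 65.2 TPM in the HFD libraries and 93.0, 9.57 and 94.4 TPM in those with hesperidin. Ackr3, a scavenging receptor of the chemokine CXCL12, was the 1 gene of the list with the reverse order, from 6.79 to 11.1 TPM in the 3 libraries and from 13.9 to 16.7 TPM in the rest.

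The pathway that maintains lymph node stroma had a like order for most genes. Of 15 tested lymphotoxin and NF-kappaB genes, 12 (80.0%) had these 3 libraries highest, beside 30.5% of all tested genes. Ltb, the lymphotoxin beta made by lymphocytes, had 0.86, 2.23 and 108 TPM in the HFD libraries and 144, 1.34 and 165 TPM in those with hesperidin. Birc3, a ubiquitin ligase of the pathway that NF-kappaB induces, had 10.6, 13.0 and 55.8 TPM in the HFD libraries and 102, 9.41 and 104 TPM in those with hesperidin. The receptor Ltbr, carried by stromal cells, had the reverse order, with 33.4, 42.7 and 30.7 TPM in the HFD libraries and 27.7, 37.8 and 20.9 TPM in those with hesperidin. Of 14 tested genes of stroma and follicular dendritic cells, 10 (71.4%) had the 3 libraries highest, beside the same 30.5%. Among them Clu, abundant in follicular dendritic cells and in many other cells, had 43.9, 48.9 and 272 TPM in the HFD libraries and 370, 61.3 and 338 TPM in those with hesperidin. Fcer2a, the low-affinity IgE receptor of follicular dendritic cells and B cells, had 0.62, 0.28 and 47.7 TPM in the HFD libraries and 103, 0.30 and 112 TPM in those with hesperidin. Mfge8, which fat and many other tissues express, had no such order, at 344, 574 and 395 TPM in the HFD libraries and 389, 441 and 359 TPM in those with hesperidin.

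Genes of vessel, lymphatic and macrophage function beyond the members were closer to the share over all tested genes, 30.5%. Of 16 tested genes of venule glycosylation and endothelium 6 (37.5%) had the 3 libraries highest, as had 3 of 7 lymphatic sinus genes (42.9%) and 2 of 10 sinus macrophage genes (20.0%). Vcam1, an adhesion molecule of endothelium and lymph node stroma, had 8.13, 18.5 and 37.7 TPM in the HFD libraries and 52.2, 12.2 and 59.0 TPM in those with hesperidin. Cd300lg and Cd34, which the capillary endothelium of fat expresses too, did not have the order, with 188 to 289 TPM and 57.0 to 114 TPM over the 6 libraries. Fut7, a fucosyltransferase of venule mucins, which leukocytes also use, had 0.07, 0.67 and 4.43 TPM in the HFD libraries and 5.62, 0.17 and 4.35 TPM in those with hesperidin. St3gal6 of the same list had 20.81, 21.95 and 29.45 TPM in the HFD libraries and 35.04, 34.99 and 31.27 TPM in those with hesperidin. Its HEP values were thus all above its HFD values, with an adjusted limma p of 0.879. Of the 16 venule genes, 3 had the 3 libraries lowest. Stab1, a scavenger receptor of sinusoidal endothelium and macrophages, had the order of Fcna, with 36.3, 40.7 and 18.7 TPM in the HFD libraries and 17.7, 32.1 and 16.0 TPM in those with hesperidin. It was the 1 tested lymphatic sinus gene with that order. Lyve1, Stab2 and Itga2b of the same list had the order of Marco, and Flt4, Clec1a and Reln had neither. Lyve1 had 8.02, 8.14 and 8.48 TPM in the HFD libraries and 12.1, 5.70 and 11.5 TPM in those with hesperidin. Of the list's genes under the minimum mean of 1 TPM, Prox1 and Mmrn1 had the order of Marco, whereas Ackr4 and Ccl20 did not. Cd209b, the lectin SIGN-R1 of medullary and marginal zone macrophages, had the order of Marco, with 6.38, 6.50 and 77.0 TPM in the HFD libraries and 98.6, 5.69 and 134 TPM in those with hesperidin. Timd4, a receptor by which resident macrophages bind dying cells, was like it, with 1.52, 1.29 and 33.6 TPM in the HFD libraries and 45.7, 1.44 and 53.9 TPM in those with hesperidin. The broad macrophage genes Cd68 and C1qa were highest in HFD replicate 2, at 113 and 141 TPM.

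**Figure D3:**
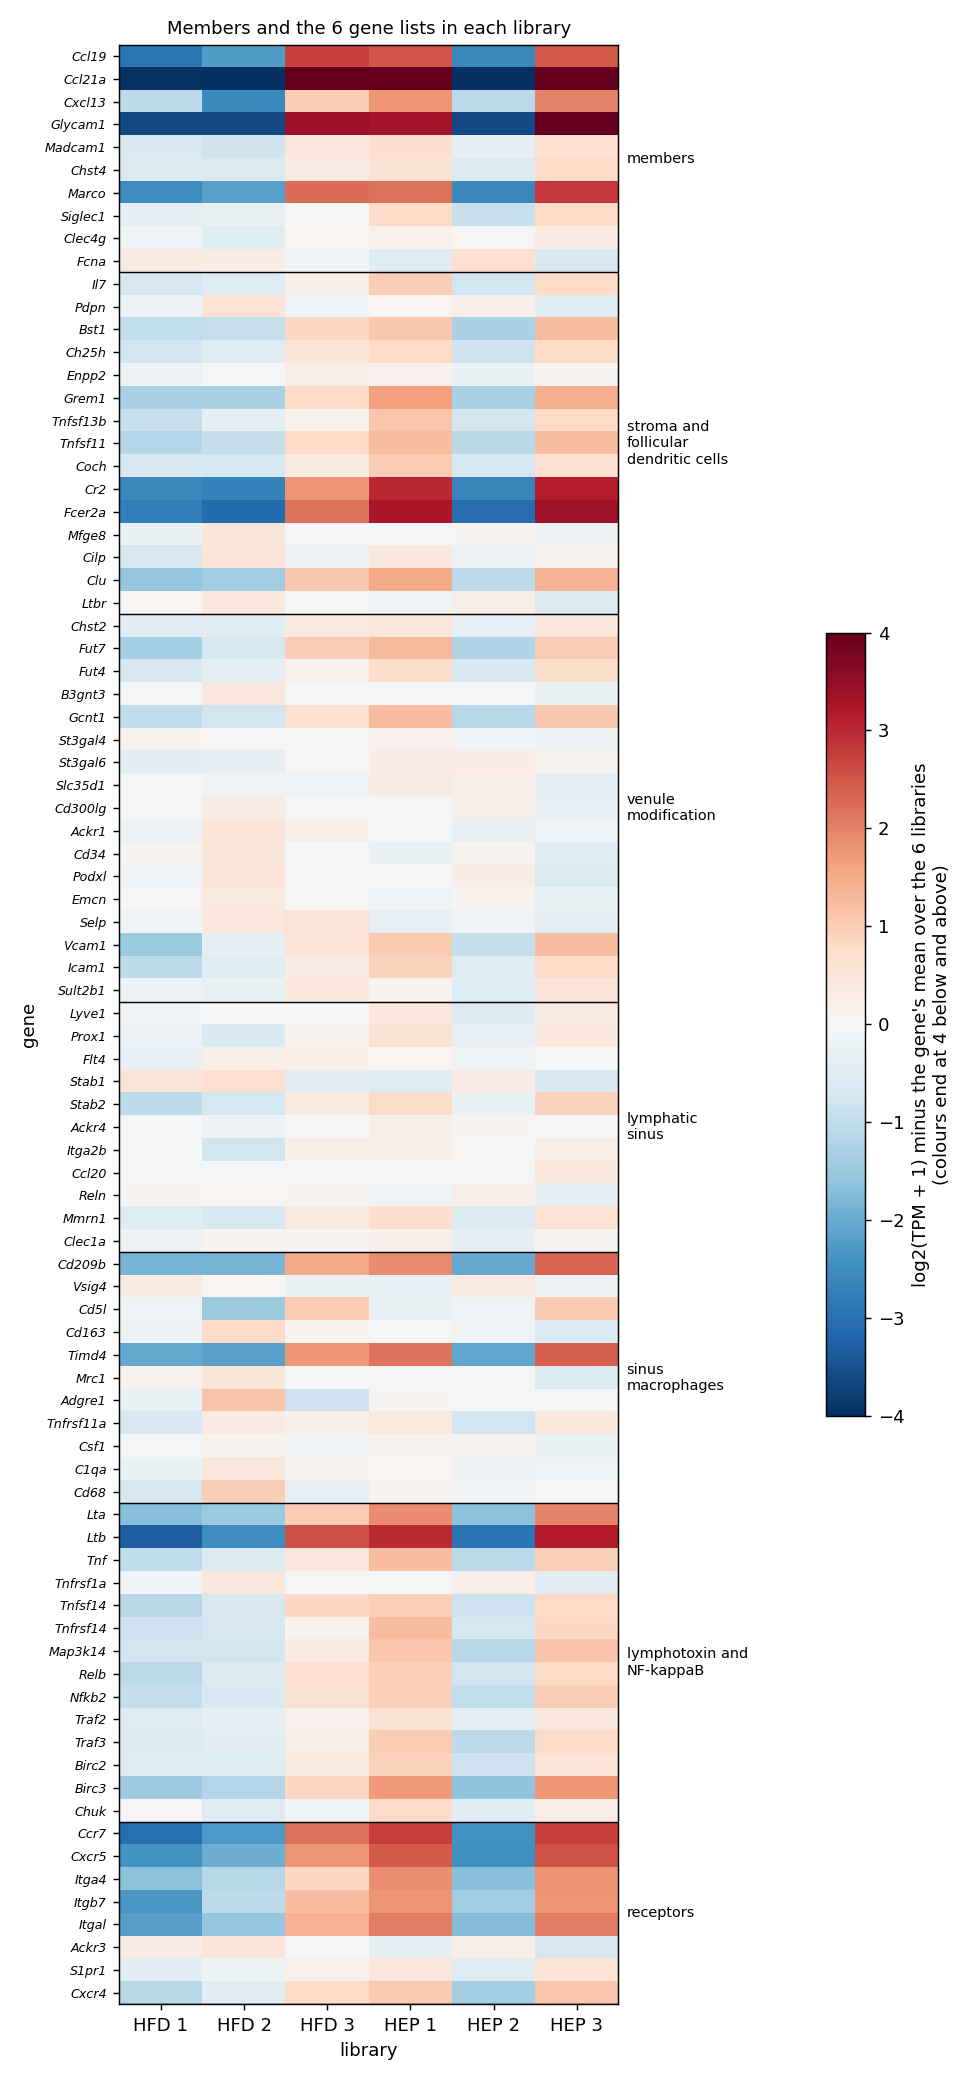
Colours give log2(TPM + 1) minus the mean of the gene over the 6 libraries (red above, blue below, colours ending at 4), for the 10 members and the 6 gene lists (rows) in each library (columns). HFD replicate 3 and HEP replicates 1 and 3 are red for most genes of the receptor list, among them Ccr7 with 45.2 to 67.0 TPM, and pale for most lymphatic sinus genes.

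The genes whose profile over the 6 libraries was nearest to each role group were found among 12729 tested protein-coding genes, by the root mean square difference between centred log2(TPM + 1) profiles. Nearest to the chemokine mean were Tcf7, Cd8b1, Cd8a, Apol7c and Fcer2a, with differences of 0.163, 0.202, 0.211, 0.259 and 0.290. Nearest to the venule mean were Cst7, Sit1, Txk, Izumo1r and Themis, with differences of 0.115 to 0.138. Nearest to the mean of the 4 sinus genes, in which opposite orders were averaged, were Lmnb1, Rps24, Rpl17, Zfp62 and Dnajc9, with differences of 0.0605 to 0.101. Tcf7 had 0.63, 0.70 and 71.8 TPM in the HFD libraries and 96.6, 0.70 and 108 TPM in those with hesperidin. The points share their libraries, and the measure says nothing beyond likeness of profile.

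The comparison set by the design asks whether expression on the high-fat diet differed with hesperidin. For none of the 10 genes did the HEP and HFD values separate, and the ranges of the groups overlapped for all 10. Of the 8 tested members 0 had all HEP values above all HFD values and 0 had them all below, beside 1.88% and 3.58% of the 15446 tested genes. With limma on log2(TPM + 1) and Benjamini-Hochberg adjustment over all tested genes, 0 members passed an adjusted p of 0.05 in either direction, and the share of all tested genes that passed was 0.0% higher and 0.0% lower. Without adjustment, 105 tested genes were higher and 174 lower at a p under 0.05, none of them a member. Without HEP replicate 2 these counts were 2701 and 982. Cxcl13, Siglec1 and Fcna were then among them, with unadjusted limma p-values of 0.037, 0.0060 and 0.0195 and an adjusted one of 0.207 each. Chst4, under the minimum and so outside these counts, was fitted without that library and with no minimum TPM. Its unadjusted limma p was 0.032 and its adjusted one 0.300.

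The group means differed widely with errors as wide. Ccl21a had a mean of 173.5 ± 299.5 TPM for HFD and 455 ± 394 TPM in HEP (SD, n = 3), a log2 fold change of 2.85 ± 3.35 (SE) with a 95% interval from -5.26 to 11.0. Ccl19 had 68.9 ± 112 and 112 ± 93.5 TPM, a log2 fold change of 1.59 ± 1.97. Cxcl13 had 28.3 ± 32.3 and 87.1 ± 63.1 TPM, with 1.77 ± 1.14 on the log2 scale and an interval from -0.99 to 4.53. The chemokine intervals thus covered values on both sides of 0. Glycam1 had 44.0 ± 76.2 and 105 ± 98.4 TPM with a log2 fold change of 2.49 ± 2.70, and Marco 22.2 ± 35.5 and 52.8 ± 47.5 TPM with 1.64 ± 1.83. Siglec1 had 3.97 ± 0.862 TPM for HFD and 6.56 ± 3.85 TPM in HEP, with 0.44 ± 0.49, and Madcam1 0.630 ± 0.801 and 1.51 ± 0.930 TPM, with 0.65 ± 0.49. Fcna, the 1 member with a lower HEP mean, had 9.62 ± 1.90 and 7.97 ± 4.77 TPM, with -0.35 ± 0.38. The adjusted limma p was 0.879 for each of these 8 genes. From a limma fit with no minimum TPM, Chst4 had a log2 fold change of 0.53 ± 0.43 and Clec4g of 0.38 ± 0.23, both with an adjusted p of 0.869. The pseudocount set the size for genes near or at 0 in some libraries. With 0.01 in place of 1 TPM, the log2 fold change was 2.60 for Chst4, 1.85 for Madcam1, 0.93 for Clec4g, 4.70 for Glycam1 and 1.71 for Ccl21a. The median log2 fold change was 1.61 over the 8 tested members and 0.07 over all tested genes.

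Which library was left out moved these values without bringing a member past the threshold. The log2 fold change of Ccl21a was 5.65 without HFD replicate 3 and 5.99 without HEP replicate 2, against 1.27 to 1.59 without any one of the other 4. Ccl19 moved in the same manner, to 3.36 and 3.29 against 0.53 to 0.87. Without HFD replicate 1 and HEP replicate 2, the 2 libraries highest in liver transcripts, an alternative chosen after seeing the data, the values were 4.73 and 2.23. With the copies summed into each gene, Ccl19-ps2 among them, the log2 fold changes were 2.81 for Ccl21a and 1.53 for Ccl19. This alternative was also chosen after seeing the data.

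**Figure D4:**
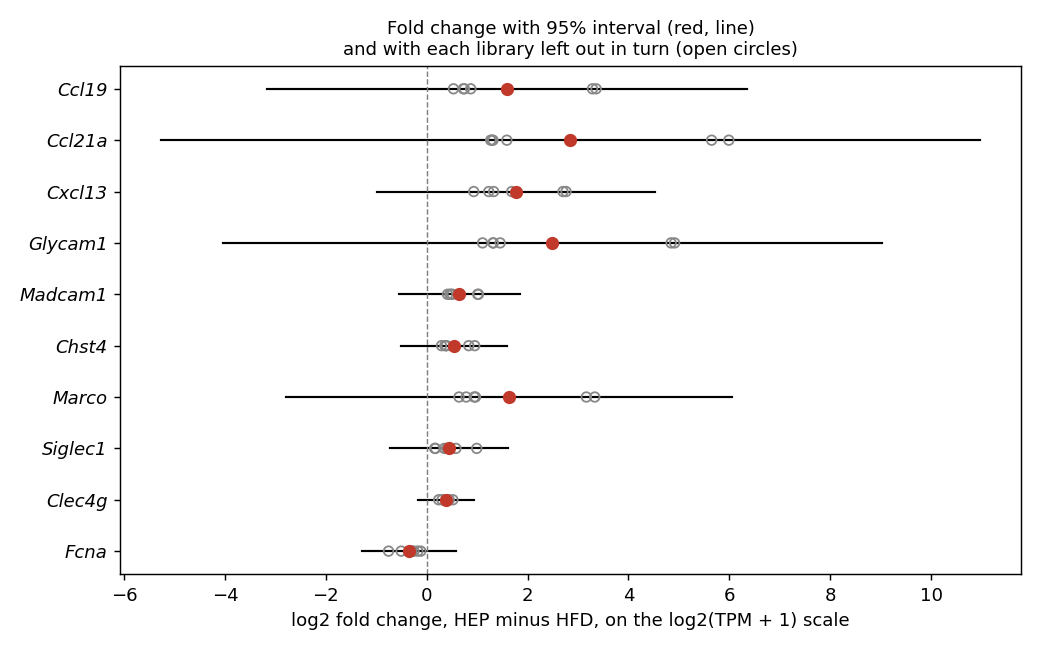
Red points give the log2 fold change of each of the 10 genes (vertical axis) between HEP and HFD on the log2(TPM + 1) scale (horizontal axis), black lines its 95% interval from limma, and open circles the value with each library left out in turn; Chst4 and Clec4g are from fits with no minimum TPM. All 10 intervals cross 0, and that of Ccl21a, from -5.26 to 11.0, is the widest.

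In the gene lists, too, 0 genes passed in either direction in the same limma fit. The median log2 fold change of HEP against HFD was 1.36 over the 8 genes of the receptor list, 0.68 over the 14 stromal genes and 0.65 over the 15 lymphotoxin and NF-kappaB genes, beside 0.07 over all genes. It was 0.04 over the 16 venule genes, -0.03 over the 7 lymphatic sinus genes and 0.02 over the 10 sinus macrophage genes. The largest of these medians belong to the lists with the highest shares of genes that follow the library order, which holds 2 HEP libraries and 1 HFD library among its high ones. Ccr7 had a log2 fold change of 2.05 ± 1.90 and Ltb of 2.14 ± 2.18, each with an adjusted limma p of 0.879.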

How the data were processed

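RNA sequencing of inguinal fat was deposited as 1 table of TPM values, computed by the authors for each gene in each sample. Their group means, also deposited, differed from the recomputed ones by at most 3.3e-05 TPM. Tools listed in the submitters' processing notes, with no version or role, are StringTie, RSEM, HISAT2, fastp and DESeq2. The genome build is not given in the sources used here, so the only coordinates printed are those of the RefSeq promoters, in GRCm38.p6. That build may differ from the one behind the TPM values. GENCODE M21 served only for overlaps and copies. Per the labels' protocols, libraries were made from TRIzol RNA with a TruSeq kit. Strandedness is not given in the sources used here. All samples carry the same batch label. Depth is unknown, because TPM keeps none.

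Samples were grouped by title. The 15446 genes that averaged 1 TPM or more over all libraries were tested on log2(TPM + 1). The test was limma 3.58.1 under R 4.3.3 with an intensity trend, two-sided and Benjamini-Hochberg adjusted. The fit was first run on simulated data with independent errors. That run cannot show error rates where many genes share a library split. Fold changes on the log2(TPM + 1) scale understate those of low genes. Lists are described by counts and medians. A gene of the receptor list is not reported here. The members, lists and promoter letters were chosen with earlier results of these data known. Text genes were all members, their copies, up to 5 tested genes per list by mean TPM and the 5 nearest profiles per role. Cxcr5, Fut7, Timd4, Ackr3, Stab2, Reln, Prox1, Mmrn1, Ackr4 and Ccl20 among the lists, and single marker genes, fall outside that rule. They were picked after their values were seen. Alternatives covered the pseudocount, the filter, scaling, the replicate block, each library left out, 2 libraries left out and summed copies.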

Additional observations from a re-analysis of the deposited data

How the results depend on the processing

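Across 137 recomputed member fold changes, every one kept its direction and 0 passed the threshold. Their sizes moved, by over 1.5 times for some genes with the pseudocount or a library left out. The alternatives were the replicate block, each library left out, quantile normalization, scaling by median ratios, pseudocounts of 0.1 and 0.01, no filter, a filter at a mean of 5 TPM, and the 2 chosen after seeing the data. Under the 5 TPM filter Madcam1, Chst4 and Clec4g gave no value. The count of genes called higher was 0 to 1 when 1 library was left out, with 1 without HEP replicate 2, and the count called lower was 0 in each such fit; the cause was not tested. With the replicate block 0 genes were called higher and 0 lower, with 185 higher and 391 lower at an unadjusted p under 0.05, among them Cxcl13 (unadjusted limma p 0.0092, adjusted 0.753). Cxcl13 also had an unadjusted limma p of 0.047 without HFD replicate 3, and Siglec1 of 0.021 without the 2 libraries highest in liver transcripts. Under quantile normalization 80 genes were higher and 363 lower at an unadjusted p under 0.05. For same-numbered samples, the deviations from the group means correlated at -0.355, 0.368 and 0.651 for numbers 1 to 3 over tested genes. HFD replicate 1 correlated best with HEP replicate 2 (0.482), and HFD replicates 2 and 3 with the HEP replicates of their own number. With 3 libraries per group that share a wide split, these values cannot show whether same-numbered samples were paired. Quantile normalization moved the median log2 fold change of all genes from 0.07 to -0.06, and relative to that shift Fcna stayed the 1 member with a lower HEP mean. With unknown depth, levels near 1 TPM, as of Madcam1, Chst4 and Clec4g, cannot be given a detection limit.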
